A study of Mus musculus with 6 samples.

Results

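The genes described here are 10 precursors of forebrain neuropeptides: Npy, Cck, Tac1, Tac2, Penk, Pdyn, Nts, Adcyap1, Crh and Gal. They were taken as the rows of the deposited table whose gene symbol equals a member, 10 of 43346 rows, and all 10 were among the 15127 genes with enough reads to be tested. RNA was sequenced from the brain of 3 adult male Kdm5c deficient mice and 3 adult male wild-type mice, described as littermates. Both genotypes are equal mixtures of the C57BL/6 and 129 strains, from a mother heterozygous for the deficiency on C57BL/6 and a wild-type 129 father. The labels state neither which part of the brain was taken nor how the allele was made. No label ties the mice to separate litters, so p-values measure the spread between these 6 mice.

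Neuropeptides are made as longer precursor proteins that are cut in the secretory pathway by proprotein convertases, trimmed and amidated, stored in dense-core vesicles and released to act mostly on G protein-coupled receptors. In the striatum the precursor genes divide the classes of projection neuron: neurons of the indirect pathway, with the dopamine receptor gene Drd2, make enkephalin from Penk, and neurons of the direct pathway, with Drd1, make substance P from Tac1 and dynorphin from Pdyn. In cortex and hippocampus, Cck and Npy mark inhibitory interneurons, and Cck is made by pyramidal neurons as well. Kdm5c encodes an X-linked demethylase of histone H3 lysine 4, a modification found at promoters and enhancers.

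The libraries held from 21090278 to 24178704 counts in deficient mice and from 20221675 to 24555412 in wild-type mice, and no pair within a genotype agreed within sampling noise (chi-square per gene from 3.55 to 17.55). Kdm5c was at 73.9, 65.5 and 78.9 CPM (read counts scaled by library total) in deficient mice, against 77.6, 82.8 and 84.0 CPM in wild-type mice, with an overlap. Those counts cover the whole gene and so do not check the genotype. Neuronal and glial markers such as Snap25, Syt1, Rbfox3, Gfap, Mbp, Aqp4 and Cx3cr1 were detected in every library. The mice differed in regional markers. The 12 cerebellar markers summed to 1738, 389 and 1338 CPM in deficient mice, against 1900, 1990 and 2155 CPM in wild-type mice, so deficient mouse 2 stood far below the other 5. The most abundant of them, Cbln3 and Calb1, had log2 fold changes of -0.99 ± 0.70 and -0.36 ± 0.16 (SE), and none of the 12 passed. Pituitary markers were near 0 except in deficient mouse 3, where growth hormone (Gh) had 305 reads and prolactin (Prl) 35, against at most 2 and 1 elsewhere, and Pou1f1 was at 0 in every library.

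Promoter sequences are shown for the 4 members that were higher in every deficient mouse than in any wild-type mouse. They are the 250 bases before the start of the RNA, 5′ to 3′ on the gene's strand, from RefSeq on build GRCm38.p6. Cck lies at chr9:121495695-121495944, Tac1 at chr6:7554811-7555060, Pdyn at chr2:129699939-129700188 (the first of its 2 listed starts) and Gal at chr19:3414545-3414794. Capitals mark CGTCA or its reverse complement TGACG, the core of the element through which cAMP and CREB act on many neuropeptide genes.

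Cck: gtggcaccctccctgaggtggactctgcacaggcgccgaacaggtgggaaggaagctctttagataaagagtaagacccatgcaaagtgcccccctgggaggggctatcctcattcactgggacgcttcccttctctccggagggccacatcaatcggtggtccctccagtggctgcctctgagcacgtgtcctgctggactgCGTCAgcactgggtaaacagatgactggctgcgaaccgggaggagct

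Tac1: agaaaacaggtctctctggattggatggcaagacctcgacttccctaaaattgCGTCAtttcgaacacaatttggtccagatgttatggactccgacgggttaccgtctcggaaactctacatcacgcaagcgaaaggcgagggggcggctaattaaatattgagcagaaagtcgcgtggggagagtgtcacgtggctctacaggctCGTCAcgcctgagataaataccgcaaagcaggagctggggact

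Pdyn: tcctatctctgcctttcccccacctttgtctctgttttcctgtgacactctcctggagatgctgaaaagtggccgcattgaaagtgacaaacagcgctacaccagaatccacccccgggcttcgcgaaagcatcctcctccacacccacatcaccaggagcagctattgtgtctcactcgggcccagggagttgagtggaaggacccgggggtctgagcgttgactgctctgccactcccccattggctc

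Gal: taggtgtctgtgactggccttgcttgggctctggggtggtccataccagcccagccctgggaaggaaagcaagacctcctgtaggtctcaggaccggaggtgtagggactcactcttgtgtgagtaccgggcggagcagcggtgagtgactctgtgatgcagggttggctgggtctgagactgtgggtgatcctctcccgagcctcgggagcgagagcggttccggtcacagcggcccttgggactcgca

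The core was present in the Cck window, 47 bases before the start, and at 2 places in the Tac1 window, 197 and 43 bases before the start. It was not among the letters of the Pdyn and Gal windows. Among the members not printed, Nts held it 166 bases and Adcyap1 91 bases before the start, and Npy and Tac2 did not. Of all 32851 listed mouse promoters, 17.8% held the core in a window of the same length on either strand. The full palindrome TGACGTCA, which contains the core, was in none of the members' windows and in 1.55% of all promoters. The AP-1 letters TGANTCA were found in the Nts window alone, against 6.75% of all promoters. These windows held 9 CG pairs for Cck, 17 for Tac1, 8 for Pdyn and 11 for Gal, and the median of all promoters was 6. In all, 8 of the 10 members had a listed promoter, and Penk and Crh did not.

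Per length of annotated exon, the members fell into separate tiers of level. These tiers depend on the length used, all annotated exons of a gene merged, which was 0.566 kb for Npy and 3.399 kb for Tac1. In CPM, without division by length, Npy and Tac1 had means of 41.4 and 42.0 over the 6 mice. Cck (median over the 6 mice 117.7 CPM per kb, from 95.1 to 164) and Penk (110.5, from 90.7 to 118) were highest and overlapped each other. Npy followed at 72.0 CPM per kb (59.7 to 87.8), below every value of Penk. Tac1 (11.96 CPM per kb) and Pdyn (10.1) made a middle tier that also overlapped, and all values of Pdyn were above those of Tac2. Tac2 (5.64 CPM per kb), Nts (5.10), Gal (4.39) and Adcyap1 (4.31) could not be ordered, since each range overlapped the next. Crh, which encodes corticotropin-releasing hormone, was lowest at 2.46 CPM per kb (2.09 to 3.30), below every value of Adcyap1.

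None of the 10 neuropeptide genes passed the test between genotypes, while 4.93% of all tested genes did (2.45% higher and 2.48% lower; edgeR's quasi-likelihood test, Benjamini-Hochberg adjusted p under 0.05). At an unadjusted p under 0.05 there were 3 of 10 (Cck, Pdyn and Gal, all higher), against 24.9% of all tested genes in either direction and 12.1% higher. DESeq2 called 1 of 10, Cck, where it called 8.31% of genes, and limma-voom called none, where it called 4.65%. Of the 10 members 8 had a positive log2 fold change, with a median of 0.21, and over all tested genes 50.3% were positive with a median of 0.001. In 4 members (Cck, Tac1, Pdyn and Gal) every deficient mouse was above every wild-type mouse, which held for 14.9% of all tested genes, and no member was lower without overlap, as 16% of all were. Deficient mouse 2, the one with low cerebellar markers, had the highest level of the 6 mice in 8 of 10 members, all but Gal and Crh, against 25.3% of all tested genes. The striatal markers shared this order, with deficient mouse 2 highest for 10 of 10, and so did 9 of 10 markers of excitatory neurons of cortex and hippocampus. The part of tissue composition in the members' values was not tested, and in bulk tissue fewer cells of a type and less RNA per cell cannot be told apart.

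Calls depended on the mice included. With deficient mouse 2 left out, Penk alone passed, lower (edgeR adjusted p = 0.0193), where 2.12% of all genes were called lower. With deficient mouse 1 left out, Cck and Pdyn passed, higher (edgeR adjusted p = 0.0106 and 0.0362), where 7.16% of all genes were called higher. Leaving out deficient mouse 3 or wild-type mouse 1, 2 or 3 gave no call among the members, with 1.01, 0.289, 0.346 and 0.648% of all genes called.

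**Figure D1:**
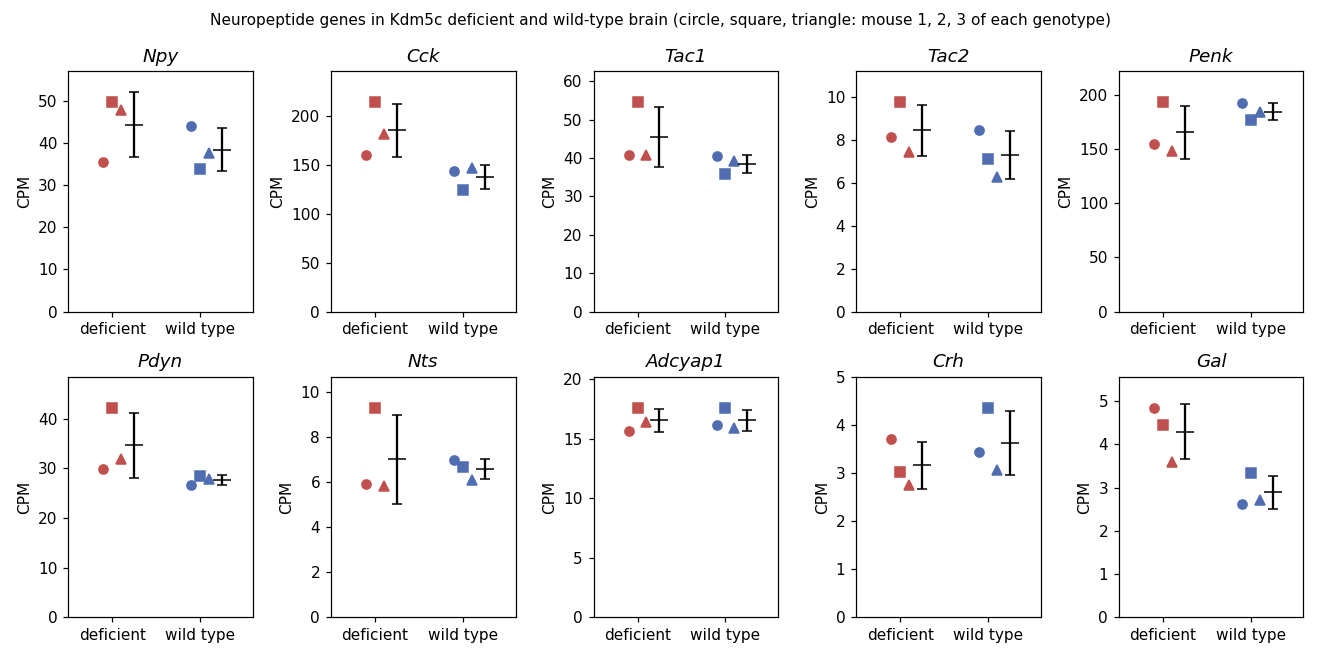
Level of each neuropeptide gene in CPM (vertical axis, from 0) in the 3 Kdm5c deficient mice (red, left) and the 3 wild-type mice (blue, right), with circle, square and triangle for mice 1, 2 and 3 of each genotype and bars for the mean ± SD. Cck, Pdyn, Gal and, by a small margin, Tac1 have no overlap, and the square of deficient mouse 2 is highest in 8 panels.

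Among the opioid precursors, the log2 fold changes of Penk and Pdyn had opposite signs, and neither gene passed the test. Penk, the enkephalin precursor, was at 155, 193 and 148 CPM in deficient mice, against 193, 177 and 184 CPM in wild-type mice. Deficient mice 1 and 3 were thus below all wild-type mice, and deficient mouse 2 was level with the highest of them. The log2 fold change was -0.16 ± 0.09 (SE, edgeR adjusted p = 0.328), and -0.29 ± 0.05 (SE) without deficient mouse 2. In the annotation (GRCm38, chromosome 4, 4133531 to 4138819, minus strand), 233 nt of its exons overlap an antisense gene, A830012C17Rik, so its reads are uncertain to that extent.

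Pdyn, the dynorphin precursor, was at 29.9, 42.2 and 32.0 CPM in deficient mice, against 26.6, 28.6 and 27.9 CPM in wild-type mice. The genotypes did not overlap, and deficient mouse 2 stood above the other 5. The log2 fold change was 0.33 ± 0.12 (SE, edgeR adjusted p = 0.137), and 0.16 ± 0.07 (SE) without deficient mouse 2. The spread was unequal between genotypes, with a coefficient of variation of 18.9% in deficient and 3.56% in wild-type mice.

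Of the tachykinin precursors, Tac1, which gives substance P and neurokinin A, was at 40.9, 54.5 and 40.9 CPM in deficient mice, against 40.4, 35.9 and 39.2 CPM in wild-type mice. Deficient mice 1 and 3 were only just above wild-type mouse 1, so the lack of overlap rests on a narrow gap. Its log2 fold change was 0.24 ± 0.11 (SE, edgeR adjusted p = 0.227) and 0.08 ± 0.07 (SE) without deficient mouse 2. Tac2, the precursor of neurokinin B, was at 8.13, 9.74 and 7.41 CPM in deficient mice, against 8.46, 7.10 and 6.25 CPM in wild-type mice, and the genotypes overlapped (log2 fold change 0.21 ± 0.15, SE).

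The ratio of read counts within a mouse does not depend on how libraries are scaled, and it was used to set Penk against Tac1, Pdyn and Cck. Bulk counts do not assign these reads to striatal neurons. Tac1 over Penk was 0.264, 0.282 and 0.276 in deficient mice, against 0.210, 0.203 and 0.213 in wild-type mice, a log2 difference of 0.39 with SDs of 0.05 in deficient and 0.03 in wild-type mice. Pdyn over Penk was 0.194, 0.218 and 0.216 in deficient mice, against 0.138, 0.162 and 0.151 in wild-type mice, a log2 difference of 0.48. In both ratios deficient mouse 2 lay close to deficient mouse 3, although its CPM values stood apart. Cck over Penk was 1.04, 1.11 and 1.23 in deficient mice, against 0.747, 0.703 and 0.796 in wild-type mice, so Cck had more reads than Penk in every deficient mouse and fewer in every wild-type mouse. Each of these 3 ratios had p = 0.1 in a two-sided exact permutation test, the smallest value that 3 against 3 mice allow, and these ratios were chosen after their values were seen. All 45 ratios among the 10 members were computed: 12 did not overlap between genotypes, and the smallest adjusted exact p was 0.375. Of those 12, 7 were among the 9 ratios that include Penk. How often the ratio of any other gene to Penk fails to overlap was not computed, so the 7 of 9 has no like share beside it. For the level of a single gene, a different measure, 30.8% of all tested genes did not overlap. The 45 ratios share the same 10 genes and are not independent of each other.

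**Figure D2:**
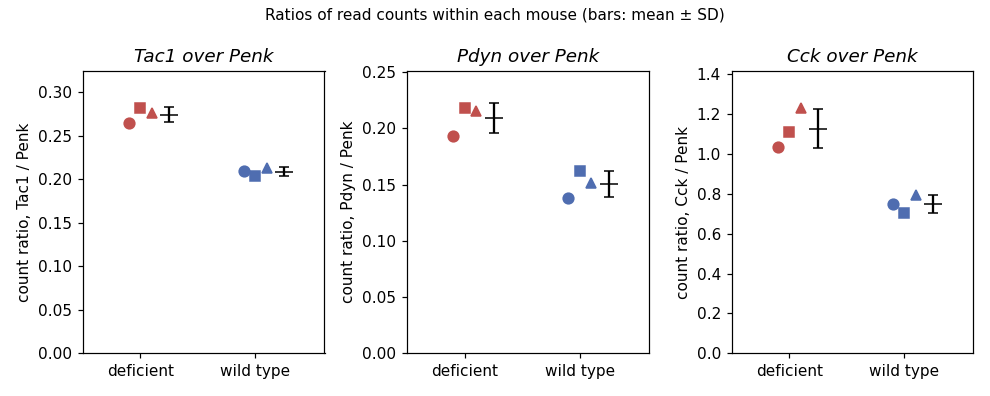
Ratio of read counts within each mouse (vertical axes, from 0) for Tac1 over Penk, Pdyn over Penk and Cck over Penk, in deficient mice (red, left) and wild-type mice (blue, right), with bars for the mean ± SD over 3 mice. In each panel the 3 deficient mice lie above the 3 wild-type mice, as for Tac1 over Penk with 0.264 to 0.282 against 0.203 to 0.213.

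The dopamine receptor genes of both striatal pathways overlapped between genotypes. Drd1 was at 27.9, 36.6 and 30.3 CPM in deficient mice, against 33.5, 29.1 and 35.6 CPM in wild-type mice, and Drd2 was at 17.5, 22.1 and 17.9 CPM in deficient mice, against 18.4, 17.7 and 19.4 CPM in wild-type mice. Pde10a, the most abundant striatal marker, had a log2 fold change of -0.07 ± 0.09 (SE). None of the 10 striatal markers passed the test, and their median log2 fold change was 0.05. Relative to the summed level of these markers in the same mouse, a scale added after the data had been seen, Penk was at 24.7, 23.2 and 22.6% in deficient mice, against 27.2, 27.4 and 26.0% in wild-type mice. On that scale Penk was lower without overlap, as were 5.86% of all tested genes, and Tac1 and Pdyn were higher without overlap, as were 6.81%. Tac1 was at 6.52, 6.56 and 6.23% of the striatal sum in deficient mice, against 5.71, 5.58 and 5.53% in wild-type mice. Pdyn was at 4.77, 5.07 and 4.87% in deficient mice, against 3.76, 4.44 and 3.93% in wild-type mice. The exact permutation p was 0.1 for each of the 3. Relative to the excitatory neuron markers Tac1 and Pdyn overlapped between genotypes. Penk was at 6.96, 6.59 and 5.68% of that sum in deficient mice, against 8.21, 8.47 and 7.53% in wild-type mice, lower without overlap, as were 14% of all tested genes.

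Cck, the precursor of cholecystokinin and the most abundant member by median level per length, came closest to the threshold. It was at 160.4, 214 and 182 CPM in deficient mice, against 144, 124 and 147 CPM in wild-type mice. Every deficient mouse was above every wild-type mouse, with deficient mouse 2 highest. The log2 fold change was 0.43 ± 0.11 (SE, edgeR adjusted p = 0.0546) and 0.31 ± 0.08 (SE, adjusted p = 0.0564) without deficient mouse 2. With DESeq2 its adjusted p was 0.00155, and with no low-count filter it was 0.0215 by edgeR, which then called 5.32% of genes. In the authors' deposited table, whose fold changes run wild type over deficient, Cck had a log2 fold change of -0.38 with an unadjusted p of 3.53e-05.

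Excitatory neuron markers had positive log2 fold changes in 9 of 10 cases, with a median of 0.20 and none past the threshold. The most abundant, Slc17a7 and Nrgn, had 0.18 ± 0.09 and 0.16 ± 0.12 (SE). Set against their sum in the same mouse, Cck was at 7.21, 7.32 and 6.99% in deficient mice, against 6.13, 5.95 and 5.99% in wild-type mice. That is a log2 difference of 0.25 without overlap (exact permutation p = 0.1), and 3.37% of all tested genes were higher without overlap on that scale. On it, deficient mouse 2 lay close to deficient mouse 1. Relative to striatal markers Cck was at 25.6, 25.8 and 27.8% in deficient mice, against 20.3, 19.3 and 20.7% in wild-type mice.

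Npy, the precursor of neuropeptide Y, was at 35.5, 49.7 and 47.9 CPM in deficient mice, against 44.0, 33.8 and 37.5 CPM in wild-type mice. Deficient mouse 1 fell between wild-type mice 2 and 3, the other deficient mice were above all wild-type mice, and the log2 fold change was 0.21 ± 0.13 (SE, edgeR adjusted p = 0.374). Relative to excitatory neuron markers its log2 difference was 0.03, with an overlap. Other interneuron peptide genes, Sst (somatostatin) and Vip, were also not past the threshold, at 0.24 ± 0.11 and 0.28 ± 0.11 (SE), nor were Gad1 and Gad2, the most abundant interneuron markers, at -0.08 ± 0.06 and 0.09 ± 0.06 (SE).

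Gal, the galanin precursor, had the largest edgeR fold change of the 10 members on few reads. It had 103, 106 and 78 reads in deficient mice, against 65, 68 and 62 in wild-type mice, which is 4.84, 4.45 and 3.59 CPM in deficient mice, against 2.63, 3.33 and 2.71 CPM in wild-type mice. The genotypes did not overlap, and the gap between deficient mouse 3 and wild-type mouse 2 was narrow. The log2 fold change was 0.58 ± 0.16 (SE, edgeR adjusted p = 0.0779) and 0.55 ± 0.19 (SE) without deficient mouse 2. In the authors' deposited values, wild type over deficient, Gal had -0.35, smaller in size than Cck at -0.38. Galanin is made in hypothalamus and brainstem among other regions, and the 10 hypothalamic markers summed to 59.2, 69.9 and 58.3 CPM in deficient mice, against 29.7, 52.4 and 33.0 CPM in wild-type mice. Wild-type mouse 2 was the highest wild-type mouse both for these markers and for Gal. The deficient mice differed in this, with the markers highest in mouse 2 and Gal highest in mouse 1. Beside 2.45% of all tested genes that rose, 3 of 9 tested hypothalamic markers rose (Pomc 1.29, Avp 1.20 and Trh 0.73, log2) and none fell. Those calls, like the one for Sox11, held when deficient mouse 1 was left out, and in 2 of the 6 fits that each omit 1 mouse. Avp no longer passed without scaling, and neither Avp nor Trh passed among genes filtered at a mean of 5 CPM. Pmch had 0.16 ± 0.22, Hcrt -0.02 ± 0.16 and Otp 0.00 ± 0.34 (SE), while 8 of the 9 markers were positive, with a median of 0.7. The part of the amount of hypothalamus in the level of Gal was not tested.

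The remaining members, Nts, Adcyap1 and Crh, overlapped between genotypes and did not pass. Nts, the neurotensin precursor, was at 5.92, 9.27 and 5.80 CPM in deficient mice, against 6.96, 6.66 and 6.08 CPM in wild-type mice. Deficient mouse 2 stood alone at the top, deficient mice 1 and 3 were below all wild-type mice, and the log2 fold change of 0.10 ± 0.18 (SE) turned to -0.16 ± 0.12 (SE) without deficient mouse 2. Adcyap1, which encodes the peptide PACAP, was the most even member, at 15.7, 17.6 and 16.4 CPM in deficient mice, against 16.2, 17.6 and 15.9 CPM in wild-type mice. Its log2 difference was 0.00 ± 0.08 (SE), and its coefficients of variation were 5.90% in deficient and 5.49% in wild-type mice. Crh was at 3.71, 3.02 and 2.76 CPM in deficient mice, against 3.44, 4.36 and 3.06 CPM in wild-type mice, with an overlap and a log2 fold change of -0.19 ± 0.18 (SE) on 60 to 89 reads per library.

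**Figure D3:**
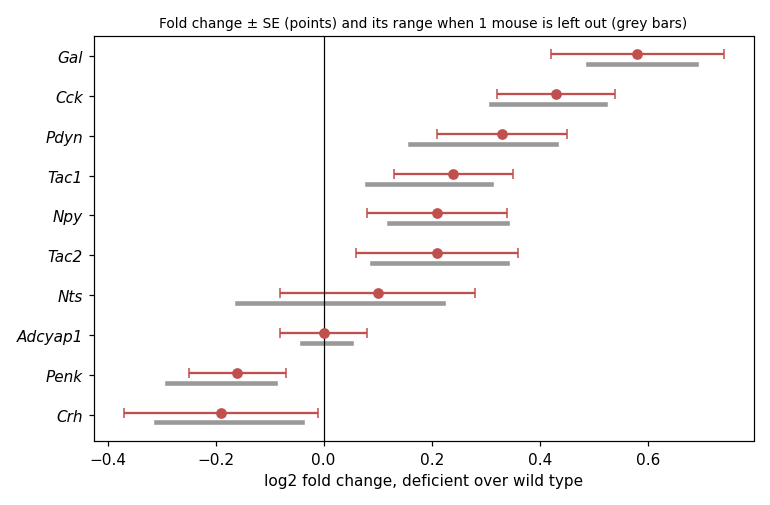
Log2 fold change of each member, deficient over wild type (horizontal axis), with points for the estimate from all 6 mice ± SE and grey bars for its range over the 6 fits that leave out 1 mouse. Gal (0.58), Cck (0.43) and Pdyn (0.33) stay above 0 throughout, as do Npy, Tac1 and Tac2. Penk and Crh stay below 0, and the bars of Nts and Adcyap1 cross 0.

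Regional markers of the 6 mice are plotted beside the members. The mean log2 deviation of the 10 members was 0.00, 0.28 and -0.03 in deficient mice, against -0.04, -0.07 and -0.14 in wild-type mice. Striatal markers had 0.28 in deficient mouse 2 as well, and excitatory neuron markers 0.29. The mean of the 10 interneuron markers of cortex was -0.02 in that mouse, where single markers went opposite ways. Pvalb (parvalbumin) was at 144, 56.7 and 102 CPM in deficient mice, against 159.8, 170.9 and 167.2 CPM in wild-type mice, lower without overlap (log2 fold change -0.72 ± 0.26, SE, edgeR adjusted p = 0.134). Reln, Gad1 and Slc32a1 were likewise lowest of the 6 mice in deficient mouse 2, while Lhx6, Sst, Dlx5 and Gad2 were highest there. Bulk counts do not place these reads in cortex. The cerebellar markers, at 1738, 389 and 1338 CPM in deficient mice, against 1900, 1990 and 2155 CPM in wild-type mice, were also lowest in deficient mouse 2. The part of cerebellar tissue in the level of Pvalb was not tested. Olfactory bulb and newborn neuron markers stood apart in deficient mouse 3, at 0.87, where no member was highest. Sox11, 1 of 7 such markers, rose (log2 fold change 0.51), where 2.45% of all tested genes rose. Thalamic and dentate gyrus markers had none past the threshold, with medians of -0.08 and 0.18. Penk, Pdyn, Crh and other members are known to be induced by neuronal activity. Of 12 activity-regulated genes 1 rose, Egr1 (0.43 ± 0.10, SE), beside the same 2.45% of all tested genes. Log2 fold changes were positive for 11 of the 12, and Npas4 was the exception at -0.65 ± 0.32 (SE), not past the threshold. The 12 genes summed to 596, 619 and 679 CPM in deficient mice, against 515, 462 and 574 CPM in wild-type mice. When a mouse was omitted in turn, Egr1 passed 1 time in 6, without deficient mouse 1. The part of neuronal activity in the members' levels was not tested.

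**Figure D4:**
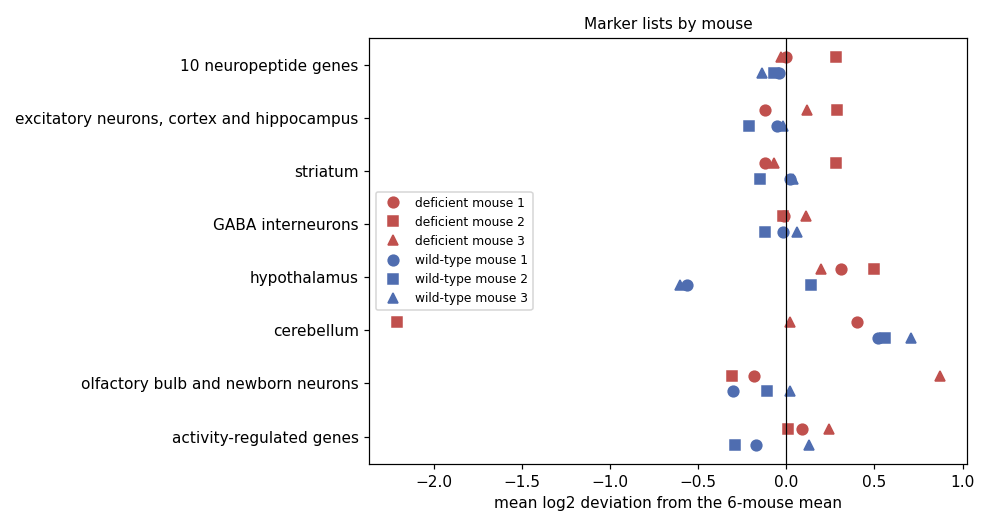
Mean log2 deviation from the 6-mouse mean (horizontal axis) of the 10 neuropeptide genes and of 7 marker lists, for each deficient mouse (red, upper row of each list) and each wild-type mouse (blue, lower row), with circle, square and triangle for mice 1, 2 and 3. Deficient mouse 2 is at -2.21 for cerebellar markers and at 0.28 for the neuropeptide genes.

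Receptors of these peptides, and Oprl1, were tested from a list of 25 genes, of which 21 had enough reads. None passed, beside the 4.93% of all tested genes, while at an unadjusted p under 0.05 (edgeR) there were 5 higher, beside 12.1% of all tested genes, and 1 lower, and the median log2 fold change was 0.11. DESeq2 called 3 (Cckbr, Npy1r and Oprl1), where it called 8.31% of all genes. Cckbr, the main cholecystokinin receptor of the brain, was at 39.5, 51.3 and 42.9 CPM in deficient mice, against 33.8, 32.8 and 36.0 CPM in wild-type mice. Like Cck it did not overlap between genotypes and was highest in deficient mouse 2 (log2 fold change 0.38 ± 0.09, SE, edgeR adjusted p = 0.0538). Oprl1 is the receptor of nociceptin, an opioid-related peptide that no member encodes. Its log2 fold change was 0.24 ± 0.06 (SE, edgeR adjusted p = 0.0536) without overlap. Npy1r, a neuropeptide Y receptor, had 0.35 ± 0.09 (SE, edgeR adjusted p = 0.0618), also without overlap. Of the 21 genes, 6 were higher without overlap and 2 lower, beside 14.9% and 16% of all tested genes. The 2 lower were Vipr2 (-0.43 ± 0.14, SE) and Crhr1 (-0.29 ± 0.13, SE), neither past the threshold. The classical opioid receptors differed in value: Oprd1, the delta receptor at which enkephalins act, had 0.35 ± 0.10 (SE), Oprm1 -0.05 ± 0.14 (SE) and Oprk1, the dynorphin receptor, -0.09 ± 0.19 (SE), and none passed.

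Genes for cutting and storing peptide precursors held 2 calls. Of 24 tested, Pcsk1 and Cpe rose and none fell, where 2.45% of all tested genes rose, and the median log2 fold change was 0.13. At an unadjusted p under 0.05 (edgeR) there were 10 higher, beside 12.1% of all tested genes, and 3 lower. Pcsk1, a convertase of neuroendocrine cells, was at 31.5, 39.1 and 35.1 CPM in deficient mice, against 27.2, 27.7 and 28.1 CPM in wild-type mice (log2 fold change 0.35 ± 0.08, SE, edgeR adjusted p = 0.0449). Cpe, the carboxypeptidase that trims basic residues from cut peptides, was at 2044, 2406 and 2188 CPM in deficient mice, against 1881, 1696 and 1826 CPM in wild-type mice (0.30 ± 0.07, SE, edgeR adjusted p = 0.0443). Both were highest in deficient mouse 2, and both calls were kept when deficient mouse 1 was omitted and lost when any of the other 5 was. With limma-voom Cpe was called and Pcsk1 was not. Over the 6 fits the adjusted p ran from 0.00926 to 0.168 for Pcsk1 and from 0.0106 to 0.178 for Cpe (edgeR). Cpxm1, a carboxypeptidase relative, had 0.38 ± 0.10 (SE) without passing. The amidating enzyme Pam had 0.22 ± 0.06 (SE), the convertase Pcsk2 0.23 ± 0.08 (SE) and the granule protein gene Chga -0.10 ± 0.06 (SE), none past the threshold. The convertases Pcsk7 (-0.25 ± 0.07, SE), Furin (-0.17 ± 0.07, SE) and Pcsk6 (-0.42 ± 0.17, SE) were lower without overlap and did not pass either. Pcsk4 (-0.17 ± 0.15, SE) and Pcsk5 (0.16 ± 0.10, SE) overlapped between genotypes. Of the 24 genes, 3 were lower without overlap and 9 higher, beside 16% and 14.9% of all tested genes. Exons of Pcsk2, Pcsk7 and Furin overlap antisense genes and those of Pam and Pcsk6 a gene on the same strand, so their reads are uncertain.

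Of 16 genes whose products degrade or sequester peptides, none passed (edgeR), beside 4.93% of all tested genes, and the median log2 fold change was 0.02. At an unadjusted p under 0.05 there were 2 higher, near the 12.1% of all tested genes, and 1 lower. DESeq2 called none of them. Dpp4, a peptidase that cuts neuropeptide Y, had 0.58 ± 0.16 (SE) with exons that overlap an antisense gene. Crhbp, which binds corticotropin-releasing hormone, had 0.29 ± 0.09 (SE), and Lnpep, an aminopeptidase, -0.22 ± 0.09 (SE).

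**Figure D5:**
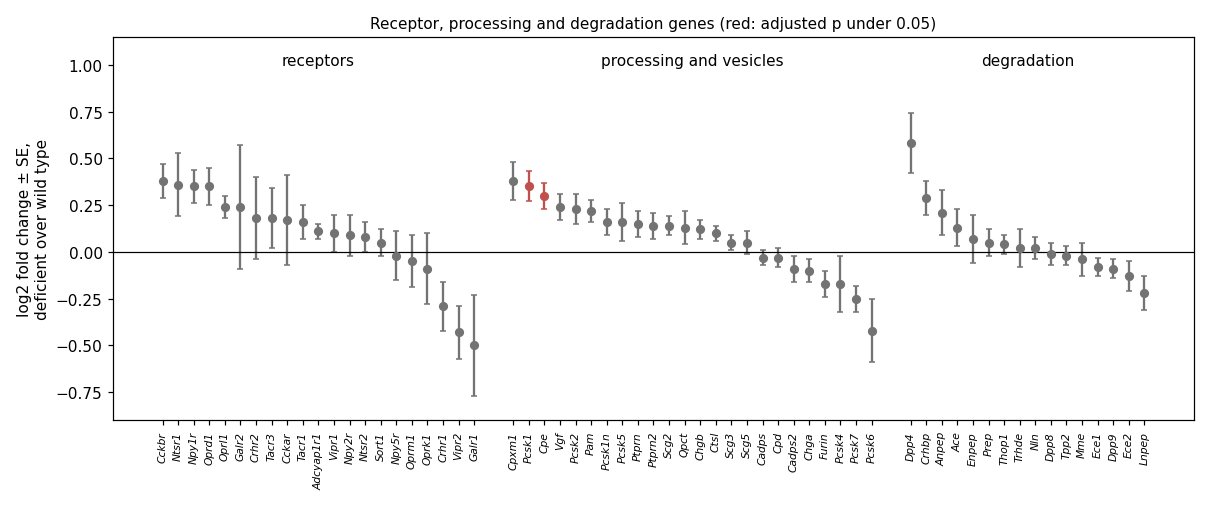
Log2 fold change ± SE, deficient over wild type (vertical axis), of each tested receptor gene, each gene of peptide processing and dense-core vesicles, and each gene of peptide degradation, ordered by value within its list. Red marks the 2 genes past the threshold, Pcsk1 (0.35) and Cpe (0.30).

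For the 3 members with the widest range over the mice, the genes of most similar pattern were sought among 11425 genes whose mean reached 5 CPM, by the root-mean-square difference of centred log2 CPM over 6 mice. Nearest to Cck were Basp1, Rap2b and Rtn4rl2, at differences of 0.025, 0.026 and 0.028. Basp1 was at 374, 508 and 441 CPM in deficient mice, against 343, 306 and 354 CPM in wild-type mice, the same order of mice as Cck. Nearest to Gal were Irgm1, Smim1 and Gpx3, at 0.072, 0.074 and 0.081, and nearest to Nts were Relb, Rspo1 and Apbb1ip, at 0.069, 0.094 and 0.094. Genes were thus closer to Cck than any gene was to Gal or Nts, whose reads were fewer.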

How the data were processed

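The authors deposited raw read counts per gene symbol and mouse, per the file headers, which were whole numbers with unequal totals. The submitters' processing notes name DESeq2 and GRCm38; for the aligner, counting program, annotation and use of strand the sources used here give nothing. The authors also deposited a mean normalized signal, a log2 fold change with its error, and a Wald test's score and p-value without adjustment; that log2 fold change runs wild type over deficient, judged from the counts. Counts were tested in R 4.3.3 with edgeR 4.0.16 (quasi-likelihood, TMM scaling, default expression filter with minimum count 10 and minimum total 15, genotype the only factor), with Benjamini-Hochberg adjustment over all 15127 genes and a threshold of 0.05. SEs come from the F statistic, and CPM use TMM-scaled totals. Alternatives were other scalings and filters, DESeq2 1.42.0, limma-voom (limma 3.58.1), a replicate block and leaving out each mouse. The script was tested on simulated data. Exon lengths and overlaps come from GENCODE M21 (GRCm38). Drd1 was matched through its older symbol Drd1a; Galr3 was not analysed here. The members, lists and alternatives were chosen with earlier results of these data known. All members are named; of the receptor, processing and degradation lists, those past the threshold and the 3 of smallest p, and other genes after their values were seen. Of the marker lists set beside the members, those past the threshold and the 2 most abundant are named, except items not reported here.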

Additional observations from a re-analysis of the deposited data

How the results depend on the processing

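Of 158 recomputed values of single members, 145 kept their direction and, where it could be judged, their side of the threshold, 5 passed it and 8 turned sign. The values relative to markers are among the 158 and were judged by sign alone. Their exact permutation p cannot fall below 0.1, so they could not pass the threshold. The sign of Adcyap1 turned without scaling (-0.012) and relative to excitatory (-0.17) or striatal (-0.03) markers, and over the fits that left out 1 mouse it ran from -0.043 to 0.05. Nts turned to -0.11 relative to excitatory markers and ran from -0.16 to 0.22 when 1 mouse was left out. The scales relative to markers were added after seeing the data. The number of genes called among all tested was 746, with 1208 by DESeq2, 1121 with no low-count filter, 58 with the replicate block and from 44 to 2098 with 1 mouse left out. Among the members, 1 was called by DESeq2 and 1 with no low-count filter, and from 0 to 2 with 1 mouse left out. For receptors the count was 3 by DESeq2 and 3 with no low-count filter, and from 0 to 3 with 1 mouse left out. Among processing and vesicle genes it was 4 by DESeq2, 1 by limma-voom, 0 with the replicate block and from 0 to 7 with 1 mouse left out. With the block the calls of Cpe, Pcsk1, Egr1, Sox11, Pomc, Avp and Trh were not made. For degradation genes it ran from 0 to 2 with 1 mouse left out. The cause of these shifts was not tested, and fits that leave out a mouse also hold fewer mice. The labels do not say whether the replicate numbers pair the mice. Deviations of same-numbered mice correlated at -0.06, -0.06 and 0.14 across genes, and deficient mouse 1 correlated best with wild-type mouse 2 (0.156). With 3 mice per genotype these correlations cannot decide whether mice were paired. Crh and Gal had no value with a filter of at least 5 CPM. Depth limits Crh and Gal most, at 60 to 106 reads per library.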
